A study of Mus musculus with 282 samples.

Results

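Among the basal prostate stem cells of inflamed mouse prostates, 65 cells carried at least 5 reads of Krt13 and 91 carried 0 to 4 reads. They were the inflamed cells with at least 1000 detected genes and at least 50000 counts, out of 268 cells of the series that met the same limits. The Krt13-positive class held 24 cells of batch 2 and 41 of batch 3, and the Krt13-negative class 56 and 35. The classes were selected on their Krt13 reads, so Krt13 itself entered no comparison, and the question was which other genes set apart the cells that carry this squamous keratin.

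Both classes came from male POET3 mice with prostate inflammation. These transgenic mice make ovalbumin in the prostate under a probasin-based promoter, so the antigen comes from prostate epithelium. Naive POET3 cells (53 in batch 2 and 59 in batch 3) carry the same transgene and serve as background. Dissociated cells were sorted after staining with a viability dye and with antibodies to leukocyte (CD45), endothelial (CD31) and progenitor (Sca-1, CD49f) surface proteins, then captured singly on a Fluidigm C1 and amplified with SMARTer chemistry. The gates, the age of the mice, the way inflammation was induced and the animal behind each cell were not stated in the labels.

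Krt13 encodes an acidic keratin that pairs with Krt4 in the suprabasal layers of stratified epithelia that do not cornify, such as the lining of mouth and oesophagus. In airway and prostate the same pair marks hillock cells, a squamous-like cell group. Luminal prostate cells use Krt8 and Krt18 instead, and basal cells use Krt5, Krt14 and Krt15. Squamous cells further along their programme cross-link involucrin (Ivl) and small proline-rich proteins (Sprr genes) into an envelope at the cell edge.

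Krt13 (ENSMUSG00000044041) lies on the minus strand of chromosome 11 from 100117327 to 100121566 in GRCm38, in the cluster of acidic keratin genes. Of the 1770 windows of 50 bases (the read length) in its transcripts, 0 occurred in another gene. The promoters of Krt13 and of Ecm1, a gene of the squamous envelope described further on, are shown because Krt13 chose the cells and Ecm1 was the envelope gene with the steadiest difference between them. They are RefSeq windows of GRCm38.p6 from 250 bases before to 50 bases after the start, and capitals mark matches to TGANTCA (the AP-1 motif) and TATAAA (the TATA box).
Krt13, chr11:100121517-100121816, minus strand: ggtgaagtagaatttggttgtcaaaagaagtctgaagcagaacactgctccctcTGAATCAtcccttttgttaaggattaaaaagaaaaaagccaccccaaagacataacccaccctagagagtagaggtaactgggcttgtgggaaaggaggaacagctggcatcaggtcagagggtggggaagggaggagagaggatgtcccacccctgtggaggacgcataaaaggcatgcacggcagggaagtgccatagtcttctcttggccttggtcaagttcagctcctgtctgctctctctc
Ecm1, chr3:95739520-95739819, minus strand: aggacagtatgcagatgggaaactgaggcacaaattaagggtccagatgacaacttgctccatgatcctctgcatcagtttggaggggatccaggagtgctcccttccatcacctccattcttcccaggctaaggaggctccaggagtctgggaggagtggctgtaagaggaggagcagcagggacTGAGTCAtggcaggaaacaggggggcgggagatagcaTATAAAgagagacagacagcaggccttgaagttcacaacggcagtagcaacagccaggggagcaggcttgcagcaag
The Krt13 window held 1 match to TGANTCA and no match to TATAAA, and the Ecm1 window held 1 of each. AACCNGTT (the GRHL motif), CCACACCC (KLF) and CCGGAAGT (ETS) were also searched and had no match in either window. The window of Krt7, a keratin gene described further on, is not printed here and held no match to any of these motifs. Krt13 has a second entry in the table, not printed here, whose start lies within the gene and whose window held 2 matches to TGANTCA and no match to TATAAA. Searched on both strands, TGANTCA occurred in 7.81% and TATAAA in 13.6% of 32851 promoter windows of the same length. A match is a run of letters and was not tested as a binding site. Krt15 and Krt4 have no entry in that table.

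At least 5 Krt13 reads were found in 24 of 80 inflamed cells of batch 2 (30%, exact 95% interval 20.3 to 41.3%) and in 41 of 76 of batch 3 (53.9%, 42.1 to 65.5%). The naive background was 3 of 53 cells (5.66%, 1.18 to 15.7%) and 1 of 59 (1.69%, 0.043 to 9.09%). Intervals of shares here and below are Clopper-Pearson over cells. They cover counting error only, since cells are not replicates and the labels name no animal. Reads without molecular identifiers are also not independent molecules. Positive cells of batch 2 held 11 to 7663 Krt13 reads with a median of 201.5, and those of batch 3 held 5 to 3090 with a median of 350. A single cell gave 37.5% of the inflamed cells' Krt13 reads in batch 2 and 11.9% in batch 3. Just inside the threshold were cells with 11 and 36 reads in batch 2 and with 5 and 5 in batch 3, and just outside it cells with 3 and 3 reads in each batch. Of the negative cells, 30 and 23 had 0 reads and 26 and 12 had 1 to 4.

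**Figure D1:**
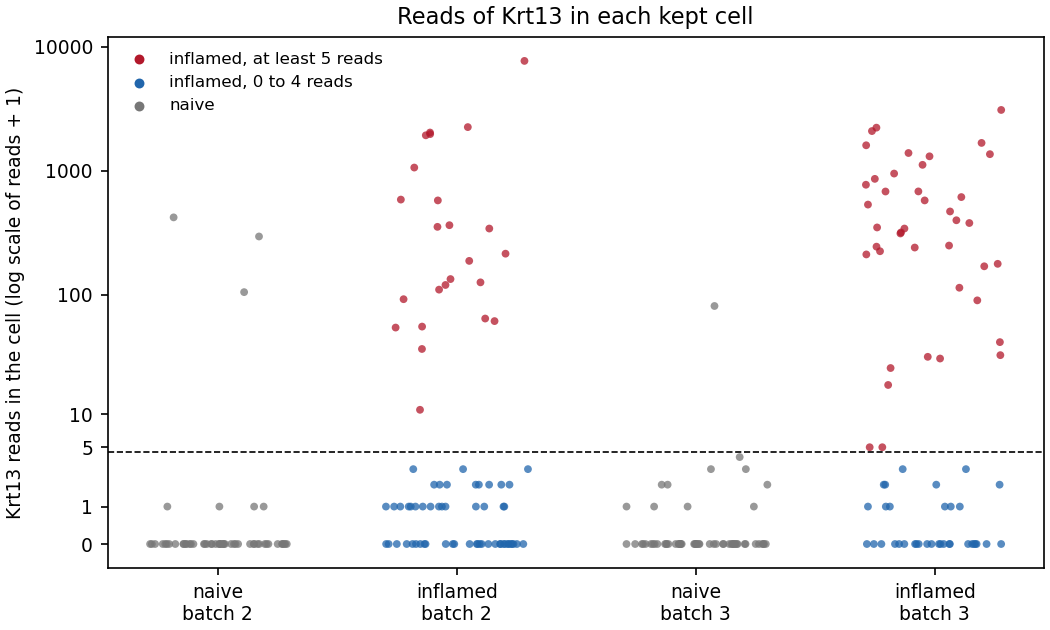
Krt13 reads in each kept cell on a log axis of reads + 1, 1 point per cell, for naive and inflamed cells of batches 2 and 3. The dashed line separates inflamed cells with at least 5 reads (red) from those with 0 to 4 (blue), and 3 and 1 naive cells (grey) lie above it.

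By the median, positive cells were slightly deeper and held more detected genes, while the shallowest cells lay in the negative class. The lowest cell held 417836 counts in positive and 67871 in negative cells of batch 2, and 547867 and 170357 in batch 3. The lowest number of detected genes was 3323 against 1163 and 2979 against 2213. Median counts per cell were 1027364 in positive and 985626 in negative cells of batch 2, and 1090564 and 905866 in batch 3. Median detected genes were 4985 against 4538 and 4297 against 3830. Mitochondrial genes took a median of 3.31% against 3.87% of counts in batch 2 and 2.50% against 3.22% in batch 3. The highest cell was at 25.8% against 94.3% and at 8.88% against 28.1%. At most 20% was mitochondrial in 23 of 24 positive and 48 of 56 negative cells of batch 2 and in 41 of 41 and 33 of 35 of batch 3. The share of cells that carry a gene is therefore read below beside the same share over all genes.

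Counts were summed over the cells of each class and batch, since cells are not replicates and the labels name no animal. The 4 sums (25078366 and 54126514 counts in batch 2, 47047493 and 31385571 in batch 3, positive first) were compared with edgeR's quasi-likelihood F test with batch in the model, which left 1 residual degree of freedom. No label says that the batches hold separate animals, so the p-values measure only how far the class difference varied between batches, which may be technical. Of 13168 genes tested, 0 were called higher (0%) and 0 lower (0%) at an adjusted p under 0.05, and the adjusted p was 1 for every gene. At an unadjusted p under 0.05, 219 genes were higher (1.66%) and 220 lower (1.67%). DESeq2 on the same sums called 205 higher and 248 lower. Higher in both batches were 3148 genes (23.9%) and lower in both 3453 (26.2%), the background for each gene group below.

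Across all genes the differences in the batches were not correlated. The direction was the same in both for 50.1% of genes, and Pearson's r between the batches' log2 fold changes was -0.01 over the 13168 genes, which are not independent. Among the 2612 genes with a read in at least 50% of cells of each batch the direction was the same for 52.6%. A fold change within a batch comes from CPM (a gene's counts scaled to the total of its sum or cell) with a prior count of 2 and has no test. In the scatter of one batch against the other the cloud has no slope, and named genes lie in each of its quadrants.

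**Figure D2:**
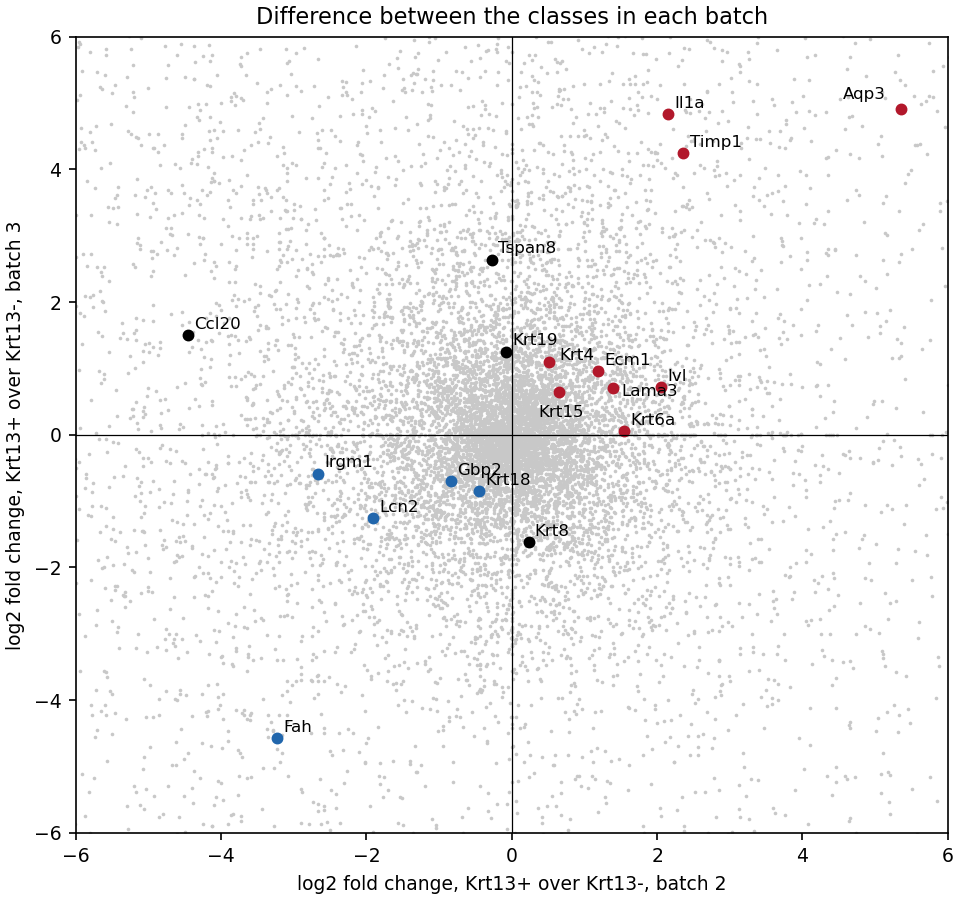
Log2 fold change of Krt13-positive over Krt13-negative summed counts in batch 2 (x axis) and batch 3 (y axis) for 13168 tested genes (grey), 1360 of them outside the axes. Named genes are red where higher in both batches (Krt15, Ecm1, Lama3, Il1a), blue where lower in both (Lcn2, Gbp2, Fah) and black where the batches differ.

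Krt15, a basal keratin whose gene lies 14.4 kb from Krt13, was higher in positive cells in both batches. Its median level per cell was 4077 (1003 to 11172) CPM in positive and 2222 (10.2 to 9239) in negative cells of batch 2, with the lowest and highest cell in parentheses here and below. In batch 3 it was 3899 (637 to 10362) against 2389.8 (10.8 to 8294) CPM. The ranges overlapped, and in each batch the lowest cell was a negative one. The sums were 4046 against 2573 CPM in batch 2 and 4614 against 2936 in batch 3, 1.57-fold and 1.57-fold (log2 fold change 0.65 ± 0.12 SE, unadjusted edgeR p = 0.00935). Naive sums were at 2614 and 2417 CPM, near the negative class. Of the 1718 windows of Krt15 transcripts, 0.64% also occurred in Krt17 or Krt25.

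Other acidic keratins near Krt13 had no shared direction. Within 300 kb lie 14 other keratin genes, of which 7 were tested. Krt14 (log2 fold changes -0.47 and -0.23 in batches 2 and 3) and Krt17 (-0.41 and -0.08), keratins of basal and wounded epithelium, were lower in both batches. With cells weighted equally the sign of Krt17 turned (0.079), but it stayed below the median of all genes in that setting (0.13). Krt19, a keratin of ducts and progenitors, stood at 554 against 586 CPM in batch 2 and 795 against 333 in batch 3. Krt16 (0.13 and -0.67), Krt32 (1.31 and -1.61) and Krt42 (-2.20 and 5.07) had opposite signs in the batches.

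Krt4, the partner of Krt13, reached 5 reads in a minority of positive cells. At least 5 Krt4 reads were present in 5 of 24 (20.8%, 7.13 to 42.2%) positive and 6 of 56 (10.7%, 4.03 to 21.9%) negative cells of batch 2. In batch 3 the numbers were 16 of 41 (39.02%, 24.2 to 55.5%) and 9 of 35 (25.7%, 12.5 to 43.3%). The intervals overlapped in each batch. The Krt4 sums were 84.3 against 59.2 CPM and 279 against 130.8 CPM (log2 fold change 0.80 ± 0.36 SE, unadjusted edgeR p = 0.104), and naive sums held 7.41 and 33.4. A single cell gave 46.7% of the positive and 50.6% of the negative reads in batch 2.

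Of the 10 squamous keratins listed, 6 were tested, 3 were higher in both batches, 2 were lower, and 0 had an unadjusted p under 0.05. Of the lower ones Krt80 was read in 2 and 1 negative cells and in 0 positive cells, so it passed the filter through the negative class alone and its direction was fixed. The list's median log2 fold change was 0.32 and -0.31 in batches 2 and 3, against -0.07 and 0.00 over all genes tested. Krt23, a keratin induced in stressed glandular epithelium, stood at 285 against 188.1 and 145.8 against 72.5 CPM, with at least 5 reads in 11 of 24 against 22 of 56 cells and in 11 of 41 against 9 of 35. Krt6a, a keratin of wounded epithelium, stood at 290.3 against 99.9 CPM in batch 2 and 47.2 against 45.4 in batch 3. Its reads are uncertain, since 57.2% of its windows also occur in other genes, Krt5 and Krt6b among them. With 1 Krt13 read as the limit of the positive class the fitted direction of both Krt23 and Krt6a turned. Krt10, the keratin of cornifying skin, was low in both classes (1.03 against 3.49 and 0.82 against 8.62 CPM). Summed over the list, the median cell held 469 against 172.3 and 148.6 against 91.04 CPM, and the naive median cell at most 0.94.

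Among cornified envelope genes Ecm1, an extracellular matrix protein of stratified epithelium, showed the steadiest difference. Its median cell held 135.6 (0 to 1159) CPM in positive and 6.36 (0 to 649) in negative cells of batch 2, and 134.3 (0 to 1043) against 1.22 (0 to 575) in batch 3. The ranges overlapped down to cells without a read, while the medians lay far apart. The sums were 260.4 against 114.5 CPM and 229.9 against 118.6 CPM (log2 fold change 1.07 ± 0.30 SE, unadjusted edgeR p = 0.0307), against 27.9 and 91.4 in naive sums. At least 5 Ecm1 reads were found in 16 of 24 (66.7%, 44.7 to 84.4%) against 25 of 56 (44.6%, 31.3 to 58.5%) cells and in 29 of 41 (70.7%, 54.5 to 83.9%) against 15 of 35 (42.9%, 26.3 to 60.6%).

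Ivl reached 5 reads in few cells of either class. At least 5 reads were found in 7 of 24 against 3 of 56 cells and in 9 of 41 against 2 of 35. The sums, 227 against 54.7 and 35.4 against 21.5 CPM (unadjusted edgeR p = 0.0873), rested on few cells, and 1 cell gave 48.7% of the positive reads in batch 2 and 46.1% in batch 3. Sprr1a, an envelope precursor, was read in every cell of both classes, at 1829 against 1604 CPM in batch 2 and 1340.1 against 1781 in batch 3. Of the whole list 10 of 21 genes were tested, 5 were higher in both batches, 1 was lower, and 1, Ecm1, had an unadjusted p under 0.05. Tgm3, counted among the higher genes, had 3 reads in 1 positive cell of batch 3 and 0 in negative cells there. The list's median log2 fold changes were 1.09 and 0.39. They were 1.29 and -0.20 with cells thinned to 500000 counts, and 1.01 and -0.11 with cells matched on detected genes. Matching on total counts gave 1.11 and 0.21. With 1 Krt13 read as the limit of the positive class, 2 were higher and 2 lower, and the medians were -0.04 and 0.18. Cnfn, Sprr3 and Trex2 had 0 reads in both classes, and Flg and Lor at most 1.15 CPM.

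The hillock list (Krt4, Ecm1, Lgals3, Anxa1, Cldn3 and S100a11) had 3 of 6 genes higher in both batches and 0 lower, with medians of 0.26 and 0.59. Lgals3, a galectin of epithelial cells, had a median cell at 519 (4.42 to 3388) CPM in positive and 288 (0 to 2246) in negative cells of batch 2, and at 233 (0 to 2706) against 2.73 (0 to 3111) in batch 3. At least 5 Lgals3 reads were found in 23 of 24 (95.8%, 78.9 to 99.9%) against 35 of 56 (62.5%, 48.5 to 75.1%) cells and in 34 of 41 (82.9%, 67.9 to 92.8%) against 15 of 35 (42.9%, 26.3 to 60.6%). These shares' intervals did not overlap in either batch. The sums were closer, at 818 against 511 and 435 against 316 CPM (log2 fold change 0.57 ± 0.21 SE, unadjusted edgeR p = 0.0656), against 34.8 and 56.9 in naive sums. Anxa1, an annexin of surface epithelium, had opposite signs in the batches (3007 against 5177 and 2926 against 2008 CPM), and S100a11, a calcium-binding protein, stood near a ratio of 1 (315 against 312 and 225 against 230.2).

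**Figure D3:**
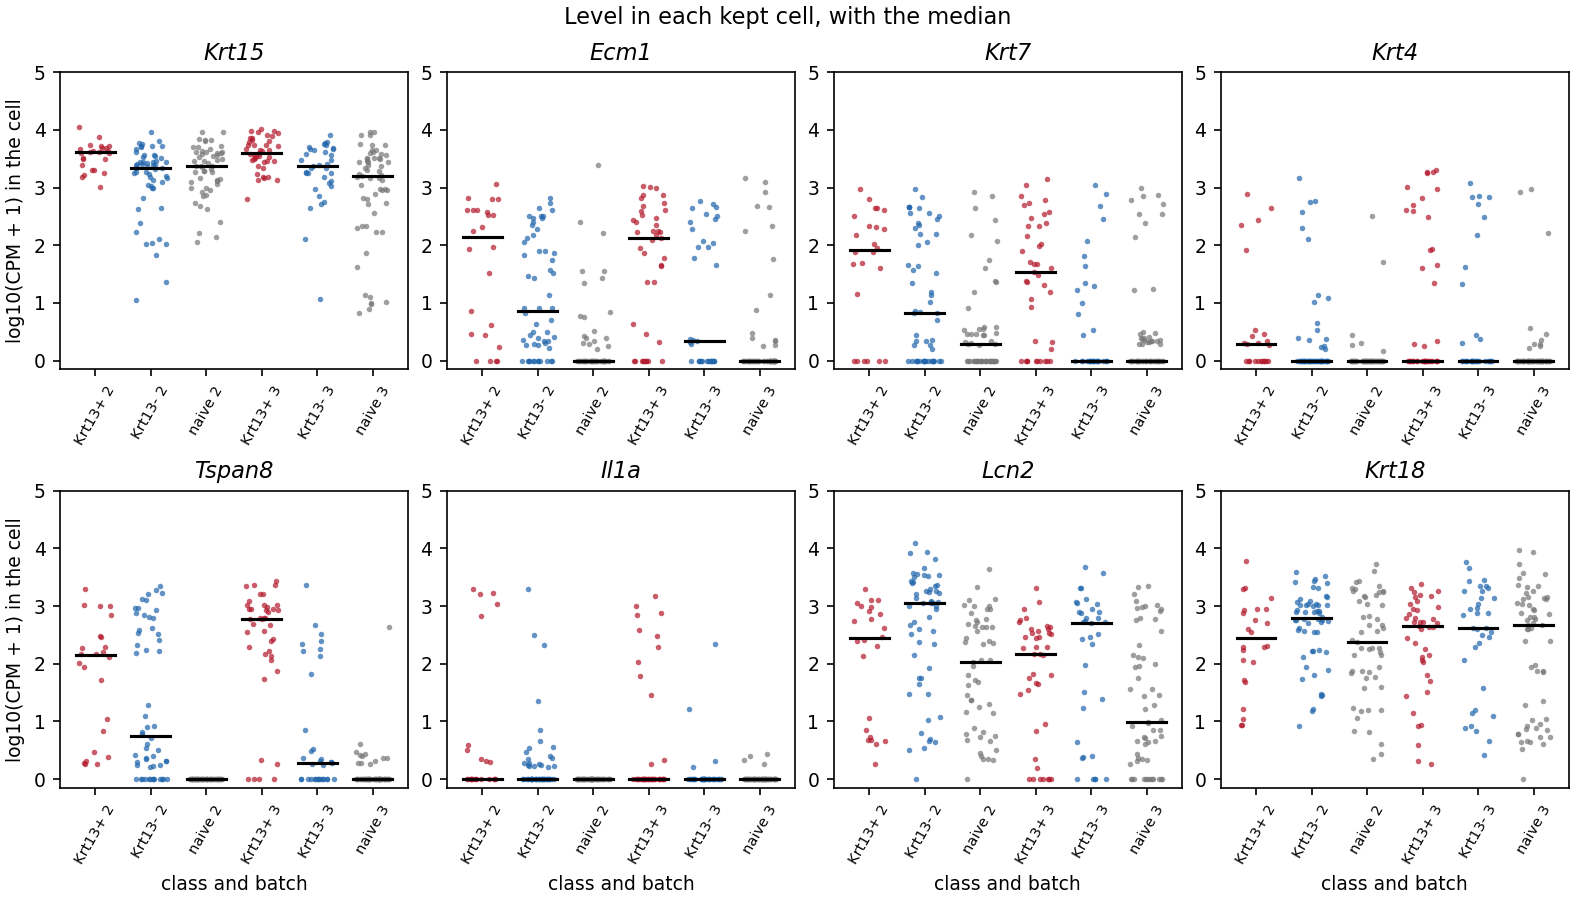
Level of 8 genes in each kept cell as log10(CPM + 1), 1 point per cell, with a bar at the median, for Krt13-positive (red), Krt13-negative (blue) and naive (grey) cells of batches 2 and 3. Krt15, Ecm1, Krt7 and Tspan8 have higher medians in positive than in negative cells in both batches, Lcn2 has lower ones, and Krt4 and Il1a are at or near 0 in most cells of each class.

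Genes of proximal luminal cells, the cells near the urethra that in mouse also carry Krt4 and Psca, had 6 of 13 tested members higher in both batches and 1 lower. The medians were -0.03 and 1.09. Krt7, a keratin of glandular and transitional epithelium, had a median cell at 81.9 (0 to 952) CPM in positive and 5.71 (0 to 933) in negative cells of batch 2, and at 32.8 (0 to 1432) against 0 (0 to 1103) in batch 3. At least 5 Krt7 reads were found in 18 of 24 (75%, 53.3 to 90.2%) against 27 of 56 (48.2%, 34.7 to 61.97%) cells and in 28 of 41 (68.3%, 51.9 to 81.9%) against 11 of 35 (31.4%, 16.9 to 49.3%). The intervals were apart in batch 3 and overlapped in batch 2. The sums were 196.2 against 131.4 and 180.5 against 81.4 CPM (log2 fold change 0.86 ± 0.35 SE, unadjusted edgeR p = 0.0821). Ly6d, a surface protein of basal and proximal cells, stood at 883 against 755 and 1278 against 649 CPM. Psca, counted among the higher genes, was read in 1 positive cell of each batch and in 0 negative cells, so it passed the filter through the positive class alone and its direction was fixed.

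Aqp3, a water and glycerol channel of stratified epithelium, differed far more in ratio and rests on few cells. Its sums were 74.4 against 1.77 and 44.1 against 1.42 CPM (log2 fold change 5.17 ± 0.92 SE, unadjusted edgeR p = 0.00861), and 1 positive cell gave 63.4% of the reads in batch 2. At least 5 Aqp3 reads were found in 9 of 24 against 4 of 56 cells and in 8 of 41 against 2 of 35, and the median cell of each class held at most 0.48 CPM. Krt4, Ecm1 and Aqp3 at 5 reads each came together in 2 of 24 and 3 of 41 positive cells and in 1 of 56 and 0 of 35 negative cells. Aqp3, like Tspan8, Ctsh, Efnb2 and Ehf below, was chosen after its values were seen.

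Tspan8, a tetraspanin of epithelial surfaces, was carried by more positive cells while its sums disagreed between the batches. At least 5 Tspan8 reads were found in 17 of 24 (70.8%, 48.9 to 87.4%) against 24 of 56 (42.9%, 29.7 to 56.8%) cells and in 35 of 41 (85.4%, 70.8 to 94.4%) against 9 of 35 (25.7%, 12.5 to 43.3%). The median cell held 139.8 (0.86 to 1944) against 4.56 (0 to 2205) CPM in batch 2 and 599 (0 to 2727) against 0.89 (0 to 2359) in batch 3. The sums were 306 against 371 CPM in batch 2 and 728 against 116.6 in batch 3 (log2 fold change 1.18 ± 0.93 SE, unadjusted edgeR p = 0.284). Naive cells with at least 5 reads numbered 0 of 53 and 1 of 59.

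Cells of both classes carried basal keratins. Krt15 and Krt17 were both present at 5 reads or more in all 65 positive and all 91 negative cells. Krt5, Krt14 and Trp63 came together in 10 of 24 and 24 of 41 positive cells and in 20 of 56 and 14 of 35 negative cells. Trp63, the transcription factor of basal cells, stood at 114.3 against 66.8 and 336 against 220.0 CPM (unadjusted edgeR p = 0.0875), and Krt5 at 135.2 against 138.3 and 180.7 against 147.3. The Trp63 difference turned to near 0 with 1 Krt13 read as the limit. Of 18 basal genes tested, 8 were higher in both batches and 4 lower, with medians of 0.16 and 0.21, and 2 had an unadjusted p under 0.05. Lama3, a chain of the laminin that anchors basal cells, stood at 477 against 181.2 and 367 against 224 CPM (log2 fold change 1.05 ± 0.30 SE, unadjusted edgeR p = 0.0348), with at least 5 reads in 20 of 24 against 28 of 56 cells and in 30 of 41 against 17 of 35. Itgb4, the chain of the integrin that binds this laminin, stood at 164.2 against 55.8 and 104.5 against 55.04 CPM (unadjusted edgeR p = 0.0572).

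Luminal keratins were read in both classes as well. Krt8 and Krt18 were both at 5 reads or more in 17 of 24 and 22 of 41 positive cells and in 32 of 56 and 24 of 35 negative cells. Krt18 sums were 726 against 996 and 633 against 1142 CPM (log2 fold change -0.65 ± 0.21 SE, unadjusted edgeR p = 0.0438). Its median cell was lower in positive cells in batch 2 (281 against 627 CPM) but not in batch 3 (458 against 425). Krt8 had opposite signs in the batches (132.5 against 112.9 and 60.6 against 186.6 CPM). Of 10 luminal genes tested, 2 were higher in both batches and 4 lower, with medians of -0.28 and -0.43. Foxa1, a factor of luminal and urothelial cells, stood at 271 against 133.5 and 164.3 against 92.3 CPM (log2 fold change 0.93 ± 0.30 SE, unadjusted edgeR p = 0.0477).

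**Figure D4:**
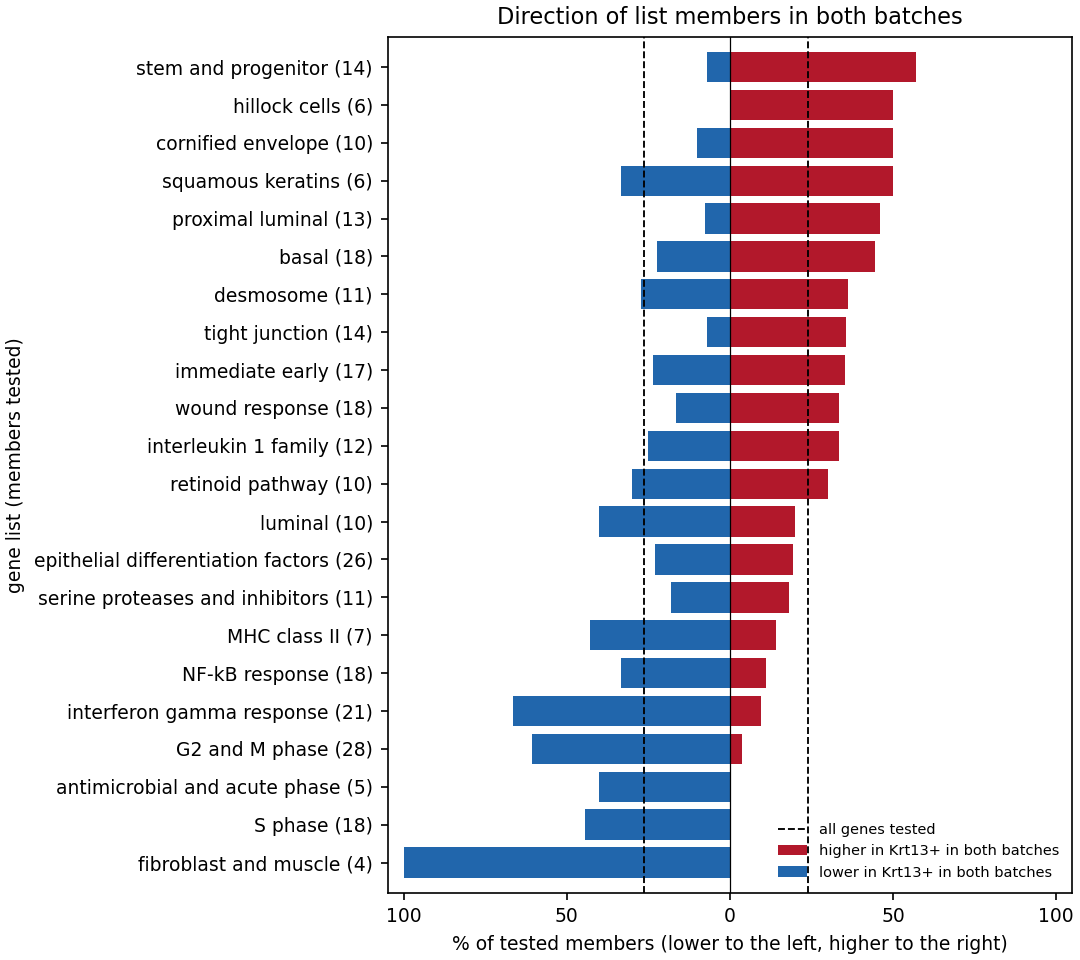
Percent of the tested members of each gene list shown that were higher (red, to the right) or lower (blue, to the left) in Krt13-positive cells in both batches, with the number tested in parentheses. Dashed lines mark 23.9% and 26.2%, the shares among all genes tested, and the hillock list has 3 of 6 members higher while the interferon gamma list has 14 of 21 lower.

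The interleukin 1 receptor antagonist is named in the title of the study. Its gene, Il1rn, stood at 168.7 against 65.1 and 208 against 153.5 CPM (log2 fold change 0.91 ± 0.41 SE, unadjusted edgeR p = 0.105). At least 5 Il1rn reads were found in 8 of 24 (33.3%, 15.6 to 55.3%) against 10 of 56 (17.9%, 8.91 to 30.4%) cells and in 8 of 41 (19.5%, 8.82 to 34.9%) against 2 of 35 (5.71%, 0.70 to 19.2%). The intervals overlapped, and in batch 3 a single negative cell gave 99.3% of that class's Il1rn reads. Il1a, the alarmin form of interleukin 1 that squamous epithelia store, stood at 309 against 69.9 and 125.98 against 4.36 CPM (log2 fold change 3.49 ± 0.94 SE, unadjusted edgeR p = 0.0287). At least 5 Il1a reads were found in 5 of 24 (20.8%, 7.13 to 42.2%) against 3 of 56 (5.36%, 1.12 to 14.9%) cells and in 10 of 41 (24.4%, 12.4 to 40.3%) against 2 of 35 (5.71%, 0.70 to 19.2%), so most positive cells lacked it. Naive sums held 0 and 0.085 CPM of Il1a and 0 and 0.13 of Il1rn. Of 12 genes of the family tested, 4 were higher in both batches and 3 lower, and Il1b had 0 reads in both classes. Il18, among the lower, was read in 2 negative cells of each batch and in 0 positive cells, which fixed its direction.

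Lcn2, which encodes the iron-trapping protein lipocalin, was lower in positive cells in both batches. Its median cell held 275 (0.87 to 1968) CPM in positive and 1134 (0 to 12612) in negative cells of batch 2, and 147.3 (0 to 2076) against 511 (0 to 4726) in batch 3. The ranges overlapped, and the highest levels lay in negative cells. The sums were 492 against 1851 CPM and 312 against 745 CPM (log2 fold change -1.58 ± 0.26 SE, unadjusted edgeR p = 0.00654), against 404 and 322 in naive sums. The share of cells with at least 5 Lcn2 reads was similar (83.3% against 85.7% and 78.05% against 71.4%).

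Of 21 interferon gamma response genes tested, 14 were lower in both batches and 2 higher, with medians of -1.77 and -0.50. An unadjusted p under 0.05 was reached by 5 lower genes (Gbp2, Gbp5, Cxcl9, Cxcl10 and Nlrc5) and by 1 higher gene, Cd274. Cd274, which encodes the checkpoint ligand PD-L1, was read in 3 and 5 positive cells, and a single cell gave 98.4% of the reads in a positive sum. Gbp5 was read in 3 and 2 negative cells, with 94.6% of a sum from a single cell. Gbp2, a guanylate-binding protein of host defence, stood at 104.8 against 187.2 and 393 against 637 CPM (log2 fold change -0.77 ± 0.23 SE, unadjusted edgeR p = 0.0395), and Irgm1, an immunity-related GTPase, at 64.1 against 407 and 522 against 783. The chemokine gene Cxcl9 stood at 19.3 against 54.4 and 118.7 against 921 CPM. It was read in 6 of 24 against 14 of 56 cells and in 20 of 41 against 20 of 35. A single cell gave 67.4% of the Cxcl9 reads and 63.1% of the Nlrc5 reads in a negative sum. Summed over the list, the median cell held 754 (16.8 to 6249) CPM in positive and 872 (0 to 15052) in negative cells of batch 2, and 4473 (32.4 to 25089.8) against 5906 (8.03 to 30489) in batch 3. The ranges overlapped almost wholly. The direction turned with the limit of the class: with 1 Krt13 read enough, 8 genes of the list were higher and 3 lower, with medians of 0.46 and 0.20. Over all genes tested, 3837 were then higher and 2877 lower. The fitted direction of Gbp2 and Irgm1 turned with that limit too, and that of Gbp2 also with cells weighted equally or matched on total counts. Several Gbp and immunity-related GTPase genes have near-identical copies, and the split of their reads is uncertain.

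Class II antigen presentation genes were read at higher levels in batch 3 in both classes. Cd74, the invariant chain, stood at 406 against 594 CPM in batch 2 and 3222 against 3303 in batch 3. H2-Aa, a class II chain, stood at 118.96 against 175.4 CPM in batch 2 and 1281 against 1229 in batch 3, and naive sums held 0 and 0.11. Of 7 class II genes tested, 1 was higher in both batches and 3 were lower, with medians of -0.55 and 0.04. Of 18 NF-kB response genes, 2 were higher and 6 lower, with medians of -0.59 and 0.06. Lif, a cytokine, stood at 88.96 against 193.7 and 103.8 against 205 CPM (log2 fold change -1.05 ± 0.31 SE, unadjusted edgeR p = 0.0379), a direction that turned with 1 Krt13 read as the limit. Ccl20, a chemokine, had opposite signs (29.8 against 657 and 2331 against 822 CPM), and a single cell gave 65.6% of the positive reads in batch 3.

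More cell cycle genes were lower than higher in the positive sums. Of 28 genes of G2 and M phase, 17 were lower in both batches and 1 higher, with medians of -0.46 and -0.95. A read of at least 10 of these genes was found in 2 of 24 (8.33%, 1.03 to 26.997%) positive and 7 of 56 (12.5%, 5.18 to 24.1%) negative cells of batch 2, and in 2 of 41 (4.88%, 0.60 to 16.5%) and 8 of 35 (22.9%, 10.4 to 40.1%) of batch 3. Without those cells 13 of the genes could be tested, 5 higher in both batches and 2 lower. With 1 Krt13 read as the limit, 16 were higher and 1 lower, so the direction depended on the limit. Of 18 S phase genes 8 were lower in both batches and 0 higher, with medians of -1.94 and -0.39. Without the cells that read at least 10 genes of G2 and M phase, 6 S phase genes were higher and 5 lower, and with 1 Krt13 read as the limit 6 were higher and 5 lower. Summed over the S phase list, the median cell held 284 (3.42 to 1101) against 192.8 (0 to 8369) CPM and 269.6 (0 to 4682) against 411 (0 to 4826).

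Of 14 stem and progenitor genes tested, 8 were higher in both batches and 1 lower, with medians of 0.35 and 0.49. Ly6a, which encodes the sorting marker Sca-1, stood at 2464 against 1918 and 2117 against 1827 CPM against 515 and 637 in naive sums, and Cd44, a surface receptor of hyaluronan, at 1397 against 1104 and 1226 against 893. Desmosome genes, whose products hold epithelial cells together, had 4 of 11 higher and 3 lower (2 and 5 with 1 Krt13 read as the limit), and tight junction genes 5 of 14 and 1. Of 26 factors of epithelial differentiation 5 were higher and 6 lower. Klf5, a factor of proliferating epithelium, stood at 169.8 against 99.9 and 90.4 against 73.6 CPM, and the receptor gene Notch1 at 9.92 against 25.4 and 15.5 against 31.5. With 1 Krt13 read as the limit the fitted direction of Cd44, Klf5 and Notch1 turned, the last pair to near 0.

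The largest differences shared by the batches were in genes of varied function that were read in few cells. They were the 12 higher and 12 lower genes chosen by the rule given with the processing. Higher were Fbxo28, Uevld, Hpcal1, Ogfrl1, Aatf, Snupn, Timp1, Tle4, Cdipt, Il1a, Rtf1 and Dhx37. Fbxo28, which encodes an F-box protein, stood at 76.7 against 3.07 and 72.98 against 2.10 CPM (log2 fold change 4.88 ± 0.80 SE, unadjusted edgeR p = 0.00661), with at least 5 reads in 6 of 24 against 4 of 56 cells and in 8 of 41 against 2 of 35. Timp1, an inhibitor of matrix proteases, stood at 60.6 against 11.7 and 44.4 against 2.29 CPM (log2 fold change 3.32 ± 1.05 SE, unadjusted edgeR p = 0.0446), with at least 5 reads in 8 of 24 against 6 of 56 cells and in 9 of 41 against 2 of 35. Lower were Tagln, Spc24, Ddx20, Fah, Creg1, Smoc2, Mms19, Jade1, Ap1m1, Egr2, Rbfox2 and Sema4a. With 1 Krt13 read as the limit Spc24, Jade1 and Ap1m1 turned direction. Fah, an enzyme of tyrosine breakdown, stood at 14.05 against 132.6 and 5.01 against 120.1 CPM (log2 fold change -3.91 ± 0.68 SE, unadjusted edgeR p = 0.00797), with at least 5 reads in 3 of 24 against 19 of 56 cells and in 4 of 41 against 10 of 35. Plaur, the urokinase receptor, was read widely and differed less, at 2535 against 1737 and 1217 against 922 CPM (log2 fold change 0.47 ± 0.15 SE, unadjusted edgeR p = 0.0457).

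Shares of cells leaned toward the positive class across the genome. Among 8482 genes found in at least 10% of inflamed cells of each batch, the share of cells with at least 5 reads was higher in positive cells in both batches for 52.1% and lower for 8.56%. The median differences were 5.95 and 4.88 percentage points. Thinning to 500000 counts used only the cells of at least that depth, so it changed the cells as well as the depth. They were 23 of 24 positive and 47 of 56 negative cells in batch 2. In batch 3 they were 41 of 41 and 31 of 35. With these cells thinned the figures were 37.2% and 14.6%, and 2.13 and 2.05 points. Beside that general shift, 35 genes stood at least 20 points higher in both batches, deposited and thinned, and 0 stood 20 points lower. At that limit 1.53% of the 8482 genes were higher in both batches as deposited and 0.53% thinned, against 0% and 0.024% lower. The limit of 20 points was chosen after the data were seen and carries no test, and the part of the higher number of detected genes in positive cells was not tested.

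Krt7 and Lgals3 were among these 35 genes, with thinned shares of 78.3% against 53.2% and 65.9% against 29.03% for Krt7 and 95.7% against 72.3% and 80.5% against 38.7% for Lgals3. Fosl1, which encodes an AP-1 subunit, had at least 5 reads in 83.3% against 57.1% and 73.2% against 42.9% of cells as deposited. Ano1, a calcium-activated chloride channel, had at least 5 reads in 87.5% against 51.8% and 68.3% against 37.1%. Both genes are known from stratified and glandular epithelium. Ovol1, a repressor that acts in epidermal differentiation, had at least 5 reads in 50% against 28.6% and 53.7% against 28.6% of cells. Bmp2, a secreted signal, had at least 5 reads in 45.8% against 19.6% and 43.9% against 17.1%, and Ctsh, a lysosomal protease, in 41.7% against 7.14% and 31.7% against 2.86%. Others among the 35 were Sra1, Fdft1, Eif4e, Rnh1, Wfdc2, Gprc5a, Igsf3 and Pard3. The genes named are a choice from the 35, which also held Trip12, Wac, Ube2k, Rc3h1, Nrbp1, Wdr43, Fip1l1 and the unnamed gene models Gm7327 and Gm17066. Whether the 35 share a function was not tested. In the plot of shares the intervals of Lgals3 and Ctsh are apart in both batches. Both genes are among the 35 set apart by these same shares, so their separate intervals add no support. The intervals of Tspan8 are apart in batch 3 alone, and those of Krt4, Krt8 and Lcn2 overlap in both.

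**Figure D5:**
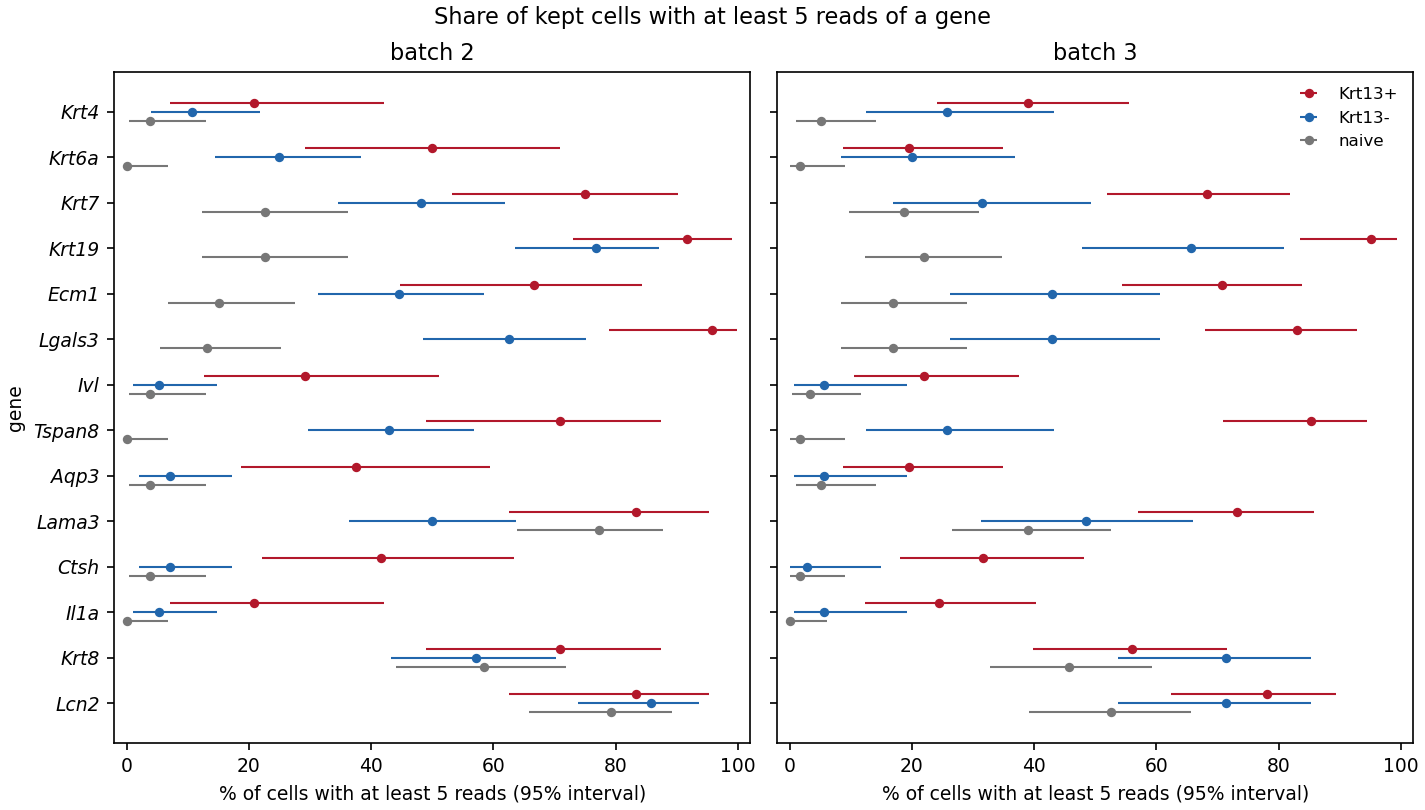
Percent of kept cells with at least 5 reads of each gene in batch 2 (left) and batch 3 (right), with exact 95% intervals for counting error, for Krt13-positive (red), Krt13-negative (blue) and naive (grey) cells. Tspan8 in batch 3 had at least 5 reads in 85.4% of positive and 25.7% of negative cells, and the intervals of Krt4, Krt8 and Lcn2 overlap in both batches.

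Giving each cell the same weight yielded calls that the sums did not. On the mean over cells of log2(CPM + 1), limma called 11 genes higher and 0 lower: Tspan8, Lgals3, Sra1, Vamp3, Rnh1, Ehf, Efnb2, Capns1, Krt19, Eif4e and Ctsh, with adjusted p from 0.0355 to 0.0441. On this scale the median of all 13168 genes lay at 0.13, but only 2612 of them had a read in at least 50% of cells of each batch. All of the 11 but Ctsh did. At an unadjusted limma p under 0.05, 9.30% of genes were higher and 1.12% lower. Shallow cells and the higher number of detected genes in positive cells were not corrected for here, and their part was not tested. Tspan8 differed by 3.51 log2 units (5.94 against 4.31 in batch 2 and 7.87 against 2.47 in batch 3). Lgals3 differed by 2.60 units, Efnb2, a membrane-bound ephrin, by 2.47, and Ehf, an epithelial Ets factor, by 2.39. Each of the 11 was higher in positive cells in both batches on this scale.

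Within the positive class, the amount of Krt13 tracked the other genes weakly. Over the 24 positive cells of batch 2 and the 41 of batch 3, Spearman's rho with Krt13 CPM was 0.17 and 0.22 for Krt4, 0.02 and 0.27 for Ecm1, 0.13 and 0.34 for Krt15, 0.31 and 0.14 for Lgals3 and -0.15 and -0.05 for Krt7. These are descriptions over the cells of each batch, with no test. Krt4 and Krt6a came together at 5 reads or more in 3 of 24 and 3 of 41 positive cells.

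Of the markers of cells that a sort could let through, Dcn was read in every cell and others in some cells. Of 12 leukocyte markers 10 had 0 reads in both classes, Ptprc (the gene of CD45), Cd3e and Lyz2 among them, and the list summed to 31.2 against 14.7 and 17.2 against 42.1 CPM, nearly all of it Cd68. Of the 8 endothelial, 8 neuroendocrine and 8 seminal vesicle markers 0 passed the filter, which asks for enough reads in at least 2 of the 4 sums. The seminal vesicle markers summed to 0.63 against 96.5 CPM in batch 2, with 3234 CPM in the highest negative cell and 0 in the median cell of either class, and to 0 in both classes in batch 3, against 11.5 and 186.5 in naive sums. Of 12 fibroblast and muscle markers 4 were tested (Dcn, Acta2, Tagln and Cnn1) and were lower in both batches, while Lum, Pdgfrb, Myh11 and Des had 0 reads. Dcn, a matrix proteoglycan, was read in every cell of both classes, at 3143 against 3413 and 4069.9 against 4718 CPM. Tagln, a contractile protein of smooth muscle, stood at 0.12 against 45.9 and 8.21 against 167.9 CPM, from 1 of 24 against 9 of 56 and 6 of 41 against 8 of 35 cells. Acta2, the actin of smooth muscle, stood at 0.36 against 0.55 and 4.37 against 80.01 CPM. The part of these reads in the other differences was not tested.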

How the data were processed

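The authors' deposited tables hold raw read counts per gene and cell, 1 table per batch, for 282 cells and 48440 Ensembl genes, of which 48058 matched a symbol. Per the submitters' processing notes, TopHat2, HTSeq, Seurat 1.4, R 3.4.1 and GRCm38.p6 were used, while strand and multi-mapped reads are not addressed in the labels. Reads were single-end, 50 bases long, without molecular identifiers, and deposited totals were 2725 to 2219764 per cell. Cells under 1000 detected genes or 50000 counts (14) were left out. No doublet caller was run, and 0 cells held identical values.

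Counts were summed by class and batch without Krt13 and tested with edgeR 4.0.16 in R 4.3.3 (filterByExpr, TMM, glmQLFit and glmQLFTest, batch and class, Benjamini-Hochberg over all genes). DESeq2 1.42.0, limma 3.58.1 on mean log2(CPM + 1), other class limits, filters, factors, thinning to 500000 counts and matching on depth were alternatives, and the code was tested on simulated data. Groups come from the sample titles. Batches 2 and 3 share no stated animal, so no pairing was assumed beyond the batch term.

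The members and lists were chosen with earlier results of these data known. Named genes were 24 fixed genes, the 12 higher and 12 lower genes with the largest smaller within-batch fold among genes found in 10% of inflamed cells of each batch, with the same direction in both and no cell giving over 50% of the higher sum, and up to 2 genes per direction in each of 29 lists. Some named genes and 1 list are not reported here. Other list members were named after their values were seen.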

Additional observations from a re-analysis of the deposited data

Results flagged for a closer look

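Cells under the limits of 1000 detected genes and 50000 counts entered no comparison, and 1 of the 7 inflamed cells left out held at least 5 Krt13 reads, the highest being 12. Of the 7 naive cells left out 0 held a Krt13 read. That cell is listed because it lies outside the cells compared and none of the naive cells left out had such reads. Its level is not above that of all naive cells, since 4 of the naive cells compared also held at least 5 reads, with up to 422.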

How the results depend on the processing

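The 0 calls of edgeR held under each other normalization, filter, class limit, cell set and depth correction run with edgeR. Calls came only from DESeq2 (205 higher, 248 lower) and from limma with cells weighted equally (11 higher, 0 lower). At an unadjusted p under 0.05, against 1.66% of genes tested higher and 1.67% lower, DESeq2 gave 6.16% and 5.90%, equal weights gave 9.30% higher, the 5977 genes found in 20% of cells gave 2.73% higher, and 1 Krt13 read as the limit gave 0.99% lower. The replicate numbers of the classes are batch numbers, which show no shared animal: with no replicate block 2.20% were higher and 2.77% lower. The median of all genes shifted to 0.13 with equal weights and to 0.20 with 1 Krt13 read as the limit, and values under those settings are read against that shift. Of 1778 pairs of a named gene and a setting, 1698 kept their direction and side of the threshold, 27 passed it, and 53 turned direction, with 31 genes turning in a setting other than a single batch; the cause was not tested. With 1 read as the limit the log2 fold changes that turned were Krt6a -0.37, Krt23 -0.10, Trp63 -0.026, Anxa1 0.27, H2-Aa 0.15, Ccl20 1.83, Spc24 0.21, Jade1 1.003, Ap1m1 2.44, Dsp -0.071, Klf5 -0.00030, Notch1 0.029, Defb50 -0.52, Tsc22d3 0.81, Cd44 -0.13, Gbp2 0.55, Irgm1 0.76, Nfkbia -0.064, Lif 0.39, Cks2 0.61, Ehf -0.022 and Trim30a 0.28. With equal weights they were Krt17 0.079, Sprr1a 0.43, Anxa1 0.89, Aldh1a1 0.10, Serpinb5 0.96, Klf9 0.46, Mmp14 0.17, Gbp2 0.14, Defb1 0.64, Atf3 0.21 and Tmpo 0.40. Read against the shifted medians, H2-Aa and Notch1 with 1 read as the limit and Krt17 and Aldh1a1 with equal weights stayed on the lower side. Matching on total counts turned Sprr1a 0.13, Serpinb5 0.10 and Gbp2 0.12, matching on detected genes Aldh1a1 0.052 and Serpinb5 0.035, and thinning Serpinb5 0.073 and Klf9 0.18. Leaving out mitotic cells turned Aldh1a1 0.11 and Cks2 0.70, a limit of 10 CPM turned Serpinb5 0.023, and no block turned Ccl20 0.67. Single batches, which leave no test, gave opposite signs for 9 named genes in batches 2 and 3: Krt5 -0.032 and 0.29, Krt19 -0.082 and 1.26, Krt8 0.23 and -1.62, Sprr1a 0.19 and -0.41, Klf4 -0.21 and 1.16, Tspan8 -0.28 and 2.64, Anxa1 -0.78 and 0.54, H2-Aa -0.56 and 0.060, and Ccl20 -4.46 and 1.503. The settings without mitotic cells and without cells over 20% mitochondrial were added after the data were seen. Matching in batch 3 was incomplete, because positive cells outnumber negative ones. Reads from a few cells and 1 residual degree of freedom limit each value.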

Other observations

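The remaining gene groups are read against the 23.9% of all genes that were higher in both batches and the 26.2% that were lower. Wound response genes had 6 of 18 higher in both batches and 3 lower (medians 0.14 and 0.11), with Plaur higher and Thbs1, a matrix protein, at 2777 against 3438 and 2249 against 3399 CPM (unadjusted edgeR p = 0.0487). With 1 Krt13 read as the limit of the positive class 2 of them were higher and 7 lower (medians -0.33 and -0.10), so the direction depended on the limit. Immediate early genes had 6 of 17 higher in both batches and 4 lower, a split of 1 and 6 with 1 Krt13 read and of 8 and 1 with cells matched on total counts. Of the rest, retinoid pathway genes had 3 of 10 higher in both batches and 3 lower and serine proteases and their inhibitors 2 of 11 higher in both batches and 2 lower. Of 13 antimicrobial and acute phase genes 5 were tested and 7 had 0 reads, with 0 higher in both batches and 2 lower, Lcn2 among the lower. Of 9 urothelial genes 3 were tested, 1 of them higher in both batches, and of 6 mucin genes 1 was tested, Muc13, which was read in 1 positive cell of each batch and in 0 negative cells, so that its direction was fixed by the filter.

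The interleukin 1 decoy receptor gene Il1r2 stood at 107.7 against 76.1 and 265 against 49.9 CPM, with at least 5 reads in 5 of 24 against 7 of 56 cells and in 15 of 41 against 2 of 35, and the co-receptor gene Il1rap at 27.02 against 43.9 and 4.39 against 42.5. Il33, a nuclear alarmin, was read in most cells of both classes, at 542 against 761 and 1841 against 1394 CPM.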
